A study of Mus musculus with 18 samples.

Results

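The genes described here are 40 ribosome biogenesis factors, the nucleolar proteins and assembly factors that make and mature ribosomal RNA and build it into subunits. They were chosen by symbol from a list of such genes; the rule used no measured value, though the list was drawn up with earlier results of these data known. All 40 were found among the 25897 genes counted. All 40 were also among the 14128 genes abundant enough to be tested, so no member was lost to the filter on low counts.

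Ribosomes are assembled in the nucleolus, where RNA polymerase I transcribes a long precursor that holds most of the ribosomal RNAs. Small nucleolar RNA-protein particles (snoRNPs) guide its chemical modification, and large relays of assembly factors fold and cut it into the small and the large subunit. The genes of these factors are transcribed by RNA polymerase II, are widely described as targets of MYC, and are commonly raised in cells that receive growth signals such as those carried by ERK.

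The cells were of E14tg2a, an embryonic stem cell line from mice of 129SV background, and their newly made RNA was counted. In all 18 libraries the endogenous Med24 gene, which encodes a subunit of the Mediator complex of RNA polymerase II, was knocked out, and the cells carried a tetracycline-regulated FLAG-Med24 cDNA and a stably expressed cRAF-ErT2-T2A-RTTA cassette. Cells kept for several passages with 500 nM doxycycline, labelled WT, are called rescued here, and cells kept without it, labelled KO, are called knockout. Both were grown in serum, LIF and 2 µM Chir99021, moved 24 h before treatment into serum and LIF with 250 nM PD173074, and either left untreated (0 h) or given 250 nM 4OHT for 2 or 8 h, which activates cRAF-ErT2 and through it ERK. RNA made in the last 15 min was labelled with 5 mM ethynyl uridine and captured. Each of the 6 groups held 3 libraries, from clones A, B and C, so every p measures the spread between clones labelled alike. Doxycycline was given to all rescued libraries and to no knockout library, so its effects and those of Med24 cannot be told apart.

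The labels were checked first. Med24 lay between 34.0 and 49.2 CPM (counts scaled to a common library total) in the 9 knockout libraries. In the 9 rescued ones it lay at 515 to 602 CPM at 0 h, 1520 to 1775 CPM at 2 h and 399 to 407 CPM at 8 h. Egr1 is an immediate early gene that ERK switches on. At 0 h it lay between 14.7 and 17.5 CPM in knockout and between 41.5 and 47.2 CPM in rescued libraries. At 2 h the ranges were 2526 to 2681 and 3265 to 3825 CPM, and at 8 h 882 to 1187 and 1508 to 1685 CPM. Egr1, Fos, Dusp6 and Spry4 were read as ERK checks. At 2 and 8 h all 4 were called lower in knockout than in rescued cells (12.9% and 17.1% of all genes). At 0 h 2 were called lower (9.64%). All 4 rose at both times in both kinds of cells. What part this gap has in the results below was not tested. The summed level of 10 embryonic stem cell markers averaged 2863, 1825 and 2223 CPM in rescued cells at 0, 2 and 8 h. In knockout cells it averaged 2736, 2166.1 and 2562 CPM, and the 8 h libraries (2334 to 2800 CPM) overlapped the 0 h ones (2715 to 2768 CPM). Single markers went both ways at 8 h. In rescued cells 3 were called higher and 7 lower (30.7% and 31.3% of all genes). In knockout cells 4 were called higher and 4 lower (28.2% and 29.6%). The summed level of 7 trophectoderm markers averaged 94.955, 392 and 564 CPM in rescued and 129, 132 and 411 CPM in knockout cells. That of 7 primitive endoderm markers averaged 31.9, 20.6 and 9.60 CPM in rescued and 62.2, 38.7 and 27.4 CPM in knockout cells. Summed neural markers lay between 14.8 and 39.1 CPM, with Neurog2 and Tubb3 at 0, and summed fibroblast markers between 1.52 and 9.10 CPM, with Lum at 0. The part of these markers' cells in the results below was not tested. Libraries held 6691177 to 14541145 counts. A set of 13 very abundant genes led by Cdk8 took 17.7% to 24.0% of counts in 15 libraries, but 34.2% in knockout 2 h clone A, 36.4% in knockout 8 h clone B and 43.9% in knockout 8 h clone C. Where leaving these 3 libraries out ended a member's call or moved its printed value by over 1.5 times, the value without them is given.

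The members were well covered. The lowest count of any member in any library was 144, for Nop10, and the highest was 20074, for Ncl. Per kb of merged exon, averaged over the 6 groups, the highest levels were those of Npm1 (488 CPM per kb), Ncl (118 CPM per kb) and Wdr43 (83.2 CPM per kb). Npm1 and Ncl encode nucleophosmin and nucleolin, abundant nucleolar proteins, and Wdr43 encodes a component of the small subunit processome. The lowest were those of Wdr12 (6.86 CPM per kb), Pes1 (8.53 CPM per kb) and Imp4 (8.72 CPM per kb). Newly made RNA holds introns, and whether intron reads were counted is not given in the sources used here, so these levels per exon length rank the genes only roughly.

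As a group the members took a growing share of counts during ERK activation once the 13 abundant genes were left out. With the 13 abundant genes left out of the total, the 40 members together held 0.864% to 0.916% of counts in the rescued 0 h libraries, 0.962% to 1.00% at 2 h and 1.12% to 1.14% at 8 h. In knockout cells the share was 0.8995% to 0.941% at 0 h, 1.01% to 1.03% at 2 h and 1.19% to 1.27% at 8 h. In both kinds of cells the 3 times did not overlap. No spike-in is named in the labels, so these are shares of the captured RNA, and in bulk samples fewer cells making an RNA and less of it per cell cannot be told apart.

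**Figure D1:**
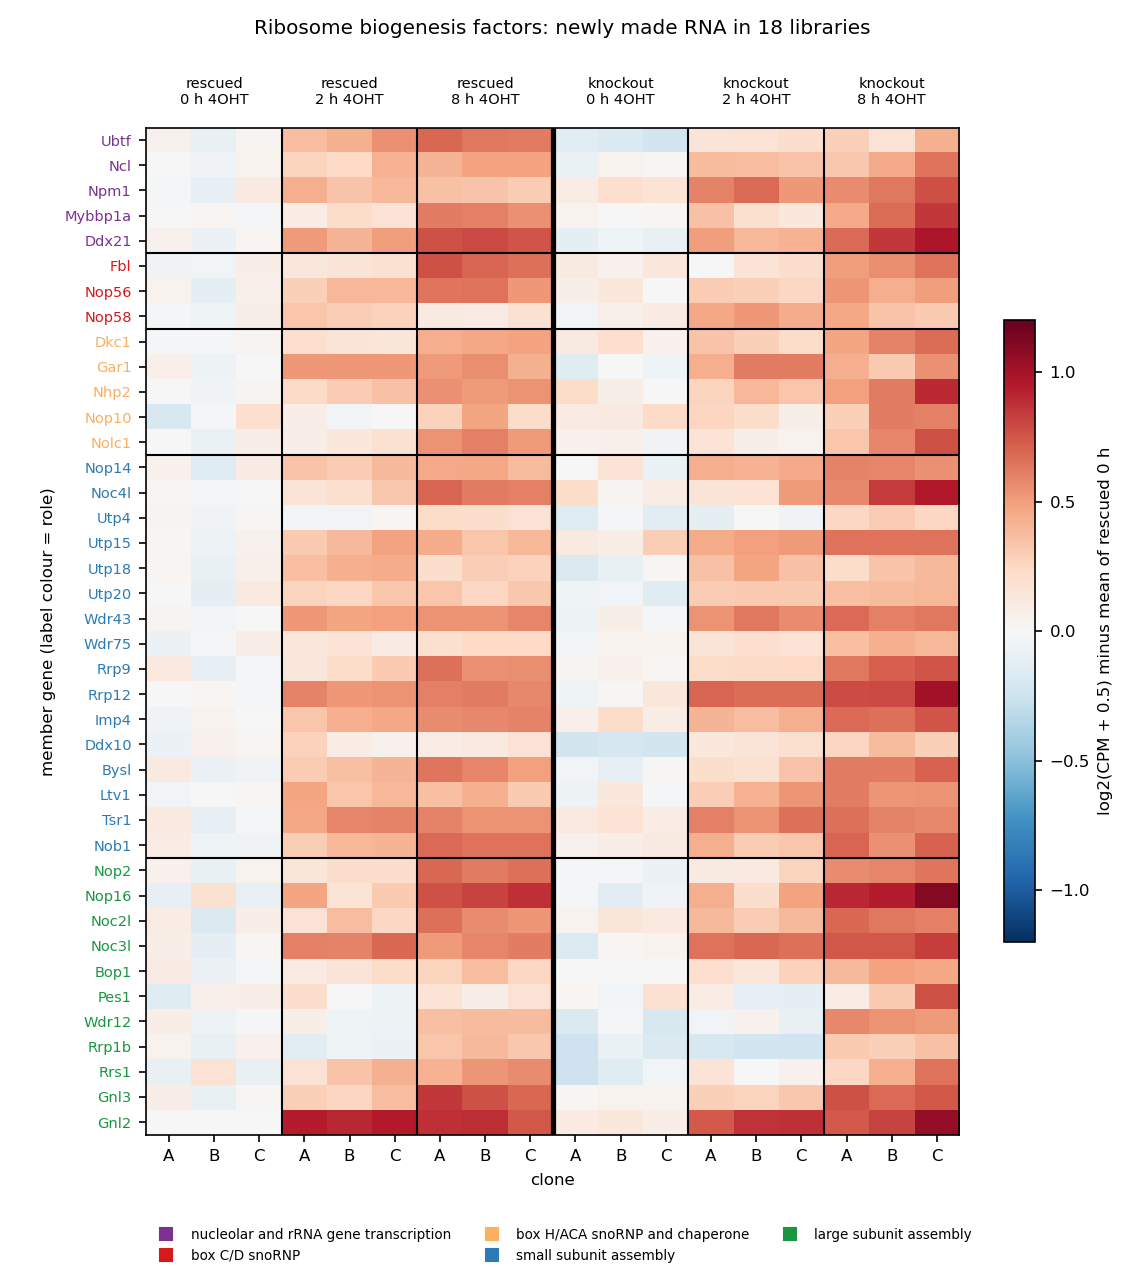
Level of each of the 40 members (rows, grouped by role) in each of the 18 libraries (columns, clones A to C of 6 groups), as log2(CPM + 0.5) minus the mean of the 3 rescued 0 h libraries. Red cells are above and blue cells below the rescued 0 h mean, and most rows turn red at 2 h and darker at 8 h in both kinds of cells.

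The first comparison asked how the members answered 2 h of ERK activation when Med24 was present. Of the 40 members, 33 rose and 0 fell (edgeR quasi-likelihood test with Benjamini-Hochberg adjustment over all genes, adjusted p under 0.05). Over all genes tested, 32.4% were called higher and 33.8% lower. At an unadjusted p under 0.05, 34 members were higher and 0 lower, and DESeq2 called 33 and 0. The median log2 fold change of the members was 0.31, a change of modest size, against -0.02 over all genes tested. In 34 members the 3 libraries at 2 h all lay above the 3 at 0 h, and in 0 all below; over all genes 33.5% lay all above and 35.3% all below. The 7 members that did not pass were Nop10, Nolc1, Noc4l, Utp4, Pes1, Wdr12 and Rrp1b, with log2 fold changes between -0.09 and 0.23.

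After 8 h in rescued cells, 38 members were higher than at 0 h and 0 lower, where 30.7% of all genes were called higher and 31.3% lower. Their median log2 fold change was 0.54, against -0.01 for all genes. All 40 members had their 3 libraries at 8 h above their 3 at 0 h, against 33.0% of all genes (33.5% lay all below). At an unadjusted p under 0.05 the counts were 39 and 0, and by DESeq2 38 and 0. The pair that did not pass was Ddx10, with a log2 fold change of 0.13, and Pes1, with 0.14.

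Knockout cells showed nearly the same counts. At 2 h, 32 members rose and 0 fell (31.5% of all genes were called higher and 35.2% lower), with a median log2 fold change of 0.28. At 8 h all 40 rose and 0 fell (28.2% higher and 29.6% lower over all genes), with a median of 0.54. In 39 members the 8 h libraries all lay above the 0 h libraries, against 28.4% of all genes (31.7% lay all below). At an unadjusted p under 0.05 the counts were again 32 and 0, then 40 and 0, and DESeq2 gave the same numbers. Pes1 was the member that overlapped. Without the 3 libraries rich in the abundant genes, 33 members rose at 2 h and 38 at 8 h, where the knockout 8 h group then rests on clone A alone, which is assumed to vary like the other groups. The 2 members that no longer passed at 8 h were Pes1 (0.04) and Nop10 (0.16).

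The size of these medians depended on how the libraries were scaled. A change of scaling shifts all genes of a library nearly alike, so the distance of the members from other genes could hardly change. Scaled by library size alone, the median over all genes moved to -0.18 at 2 h and -0.08 at 8 h in rescued cells, and to -0.33 at 2 h and -0.38 at 8 h in knockout cells. The members' median then became 0.15 and 0.47 in rescued cells, -0.01 in knockout cells at 2 h and 0.17 at 8 h. Relative to all genes, the members' median stood 0.32 to 0.33 higher at 2 h and 0.55 to 0.57 higher at 8 h in both kinds of cells under each of the 5 scalings shown. Under each of them 38 members at 2 h and 40 at 8 h lay above the median of all genes, which follows in the same way. Without the 3 libraries rich in the abundant genes, the knockout 8 h distance was 0.50 in place of 0.56. Because the medians move with the scaling, changes of the members below are changes relative to other genes.

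**Figure D2:**
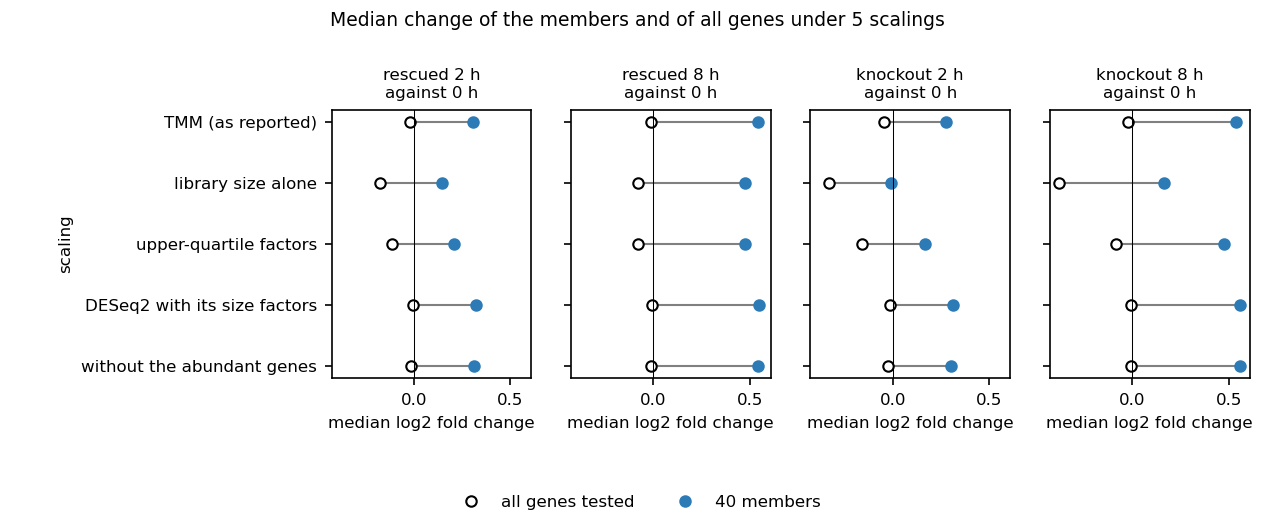
Median log2 fold change of the 40 members (filled) and of all genes tested (open) in 4 comparisons under 5 ways of scaling the libraries. A change of scaling moves the open and filled points together, so the gap between them stays near 0.33 at 2 h and 0.56 at 8 h.

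The largest early change belonged to the large subunit factor Gnl2, which encodes a nucleolar GTPase needed for export of the large subunit (chromosome 4, 125016585 to 125055380, plus strand, GRCm38). In rescued clones A, B and C it stood at 65.0, 65.2 and 65.4 CPM at 0 h, at 125, 122 and 126 CPM at 2 h and at 120, 121 and 109 CPM at 8 h. The 3 times separate into 1 low group and 2 high ones, and the high groups lie side by side. The log2 fold change was 0.94 ± 0.065 (SE, n = 3 per group) at 2 h and 0.84 ± 0.065 at 8 h (adjusted p 7.88e-14 and 9.29e-13, edgeR). In knockout clones Gnl2 went from 69.7, 71.1 and 68.9 CPM to 109, 119 and 120 CPM at 2 h, a log2 fold change of 0.73 ± 0.064. Gnl2 overlaps Dnali1 on the opposite strand and the annotated gene Gm12931 on its own strand. Whether counting used strand is not given in the sources used here.

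Among the 11 large subunit factors, 8 rose at 2 h and 10 at 8 h in rescued cells, and 8 and 11 in knockout cells. Over all genes 28.2% to 32.4% were called higher in these comparisons. Noc3l, which encodes a partner in early large subunit assembly (chromosome 19, 38788128 to 38819237, minus strand), stood at 69.8, 61.3 and 67.2 CPM in rescued clones at 0 h and at 100, 100 and 107 CPM at 2 h, with no overlap. Its log2 fold change was 0.63 ± 0.060 in rescued and 0.70 ± 0.060 in knockout cells at 2 h, and 0.57 and 0.80 at 8 h. Nop16 (chromosome 13, 54584185 to 54590090, minus strand), whose product binds early large subunit particles, moved later. It stood at 26.4, 32.3 and 26.7 CPM at 0 h, at 39.6, 31.8 and 35.3 CPM at 2 h and at 48.6, 50.2 and 52.4 CPM at 8 h in rescued clones. The 0 h and 2 h libraries of Nop16 overlap and the 8 h libraries lie above both. Its 8 h log2 fold change was 0.83 ± 0.089 in rescued cells and 1.06 ± 0.090 in knockout cells, the largest of any member there.

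Gnl3, the gene of nucleostemin, a nucleolar GTPase abundant in stem cells, rose by 0.77 on the log2 scale at 8 h in rescued and by 0.70 in knockout cells. Nop2, which encodes an RNA methyltransferase of the large subunit, rose by 0.66 and 0.64. Bop1, Pes1 and Wdr12 encode the PeBoW complex, which acts in large subunit ribosomal RNA processing. At 8 h Bop1 rose by 0.29 in rescued and 0.44 in knockout cells and Wdr12 by 0.37 and 0.68. Pes1 rose by 0.32 in knockout cells and had a log2 fold change of 0.14 in rescued cells. Pes1 stood at 25.3 and 29.6 CPM in knockout 8 h clones A and B and at 40.9 CPM in clone C, the library richest in the abundant genes, and 1 clone thus lay apart. Without clone C the knockout log2 fold change of Pes1 was 0.13 and did not pass (adjusted p 0.318, edgeR), and without the 3 libraries rich in abundant genes it was 0.04. The call was also lost without knockout 0 h clone A (0.30) or B (0.27), and scaled by library size alone the value was -0.05. The remaining factors Noc2l, Rrs1 and Rrp1b rose at 8 h by 0.34 to 0.59 in rescued and by 0.48 to 0.58 in knockout cells.

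Most of the 16 small subunit factors rose early. At 2 h, 14 of 16 rose in rescued and 14 of 16 in knockout cells, and at 8 h 15 and 16. Over all genes 28.2% to 32.4% were called higher in these comparisons. Rrp12, a factor for export of the pre-ribosome, rose by 0.55 ± 0.061 at 2 h in rescued and 0.65 ± 0.059 in knockout cells. Tsr1, a GTPase-like factor of late small subunit maturation, rose by 0.55 and 0.48. Wdr43 (chromosome 17, 71615895 to 71659031, plus strand) rose by 0.50 and 0.58, from 307, 295 and 299.8 CPM at 0 h to 431, 418 and 424 CPM at 2 h in rescued clones.

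Several other small subunit genes moved less. Utp15, Utp18, Utp20, Wdr75, Nop14, Imp4 and Rrp9 encode parts of the small subunit processome, the particle that forms on the nascent precursor, and they rose by 0.13 to 0.42 at 2 h in rescued cells. Bysl, Ltv1 and Nob1, which act late in small subunit maturation, rose by 0.36 to 0.41. Nob1 encodes the nuclease that makes the final cut of the small subunit RNA, and at 8 h its change was 0.66 in rescued and 0.58 in knockout cells. Noc4l and Utp4 did not pass at 2 h in either kind of cells, and at 8 h rose by 0.66 and 0.20 in rescued cells. The RNA helicase gene Ddx10 is described with the knockout comparison.

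The 5 genes of nucleolar proteins and ribosomal RNA gene transcription were all called higher at both times in both kinds of cells. Between 28.2% and 32.4% of all genes were called higher in these comparisons. The rescued 2 h call of Mybbp1a (0.16) was lost without 0 h clone A (0.16) or C (0.16) or 2 h clone B (0.13) or C (0.15). Its knockout 2 h call (0.21) was lost without 2 h clone A (0.14). Ddx21, an RNA helicase gene (chromosome 10, 62580251 to 62602281, minus strand), stood at 236, 217 and 232 CPM in rescued clones at 0 h, at 325, 303 and 323 CPM at 2 h and at 389, 394 and 385 CPM at 8 h. Each time lay above the one before without overlap. Its 8 h log2 fold change was 0.77 ± 0.059 in rescued and 0.92 ± 0.060 in knockout cells. Ubtf, which encodes the upstream binding factor of RNA polymerase I, rose by 0.65 and 0.47 at 8 h, Mybbp1a by 0.59 and 0.64, Ncl by 0.46 and 0.49 and Npm1 by 0.33 and 0.51.

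The snoRNP genes behaved unevenly. Fbl, the methyltransferase of box C/D snoRNPs (chromosome 7, 28169710 to 28179269, plus strand), stood at 76.8, 77.1 and 83.6 CPM in rescued clones at 0 h, at 86.7, 88.1 and 89.7 CPM at 2 h and at 135, 129 and 126 CPM at 8 h. Most of its rise fell between 2 and 8 h. Its 2 h log2 fold change was 0.15 ± 0.059 in rescued cells, which passed (adjusted p 0.0234, edgeR), and 0.04 in knockout cells, which did not. The rescued call was lost without 0 h clone A (0.14) or B (0.14) or 2 h clone C (0.14). The box C/D core genes Nop56 and Nop58 rose by 0.36 and 0.30 at 2 h in rescued cells. At 8 h the change of Nop56 was 0.60 and that of Nop58 was 0.13, a call lost without 0 h clone A or B or any of the 3 clones at 8 h (0.10 to 0.14).

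Of the 5 box H/ACA genes, whose particles guide pseudouridylation, Gar1 had the largest early change. It encodes a core protein of these particles (chromosome 3, 129824912 to 129831396, minus strand) and stood at 56.4, 51.8 and 54.4 CPM at 0 h and at 77.8, 77.9 and 78.0 CPM at 2 h in rescued clones. Its 2 h log2 fold change was 0.52 ± 0.066 in rescued and 0.64 ± 0.065 in knockout cells. Dkc1, the pseudouridine synthase gene, and Nhp2, another core protein gene, rose by 0.17 and 0.30 at 2 h in rescued cells. Nop10, the smallest core protein, and Nolc1, the snoRNP chaperone, did not pass at 2 h in either kind of cells, and rose by 0.32 and 0.55 at 8 h in rescued cells. The call of Nop10 was lost without 0 h clone A (0.22) or 8 h clone B (0.25).

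**Figure D3:**
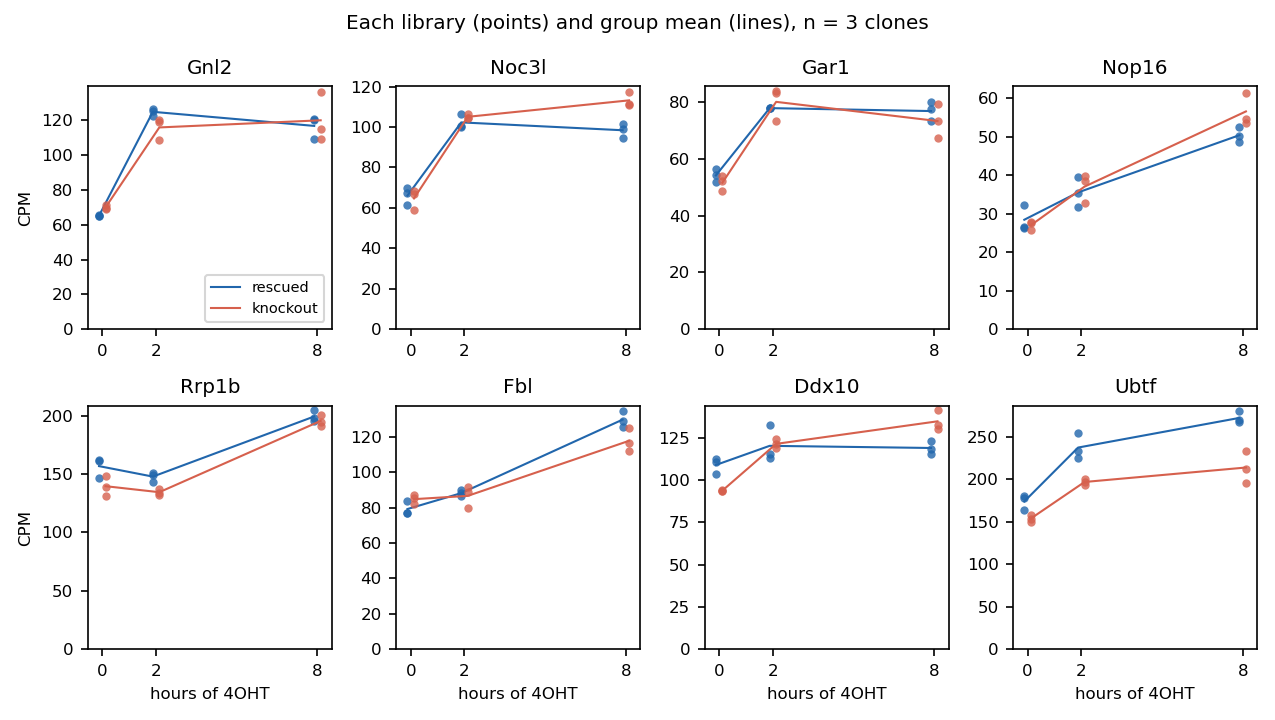
CPM of 8 members against hours of 4OHT (axis to scale) in rescued (blue) and knockout (red) cells, with points for the 3 clones of each group and lines through the group means. Gnl2, Noc3l and Gar1 reach their 8 h level by 2 h, Rrp1b and Fbl move mostly between 2 and 8 h, Ddx10 and Ubtf start lower in knockout cells.

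The step from 2 to 8 h divided the members by timing. In rescued cells 22 members were higher at 8 h than at 2 h and 2 were lower (30.7% and 30.2% of all genes), with a median log2 fold change of 0.19. In knockout cells 28 were higher and 0 lower (29.4% and 27.7% of all genes), with a median of 0.29. At an unadjusted p under 0.05 the knockout counts were 29 and 1, and by DESeq2 25 and 0. Without the 3 libraries rich in the abundant genes the knockout count was 18 higher and 2 lower. The 2 lower were Gar1 and Utp18, each at -0.20. The median of the members was then 0.18. The members that no longer passed were Nhp2, Nop10, Nop14, Noc4l, Utp15, Rrp12, Ddx10, Bop1, Pes1 and Rrs1, with values between 0.08 and 0.22, and Nolc1 moved from 0.47 to 0.27 and passed.

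In rescued cells 16 members rose in both steps, among them Ubtf, Ddx21, Fbl, Nop2, Nop16 and Gnl3. For another 15 the rise at 2 h was followed by no further called change, among them Gnl2, Noc3l, Gar1, Rrp12, Tsr1, Wdr43, Ncl and Npm1. Nop58 and Utp18 rose and then fell, by 0.17 and 0.15 on the log2 scale (adjusted p 0.00748 and 0.0219, edgeR). The fall of Utp18 did not pass without rescued 2 h clone C (-0.13) or without rescued 8 h clone A (-0.12). The 6 members called higher in the second step alone were Nop10, Nolc1, Noc4l, Utp4, Wdr12 and Rrp1b, and Pes1 passed in neither step. These classes rest on calls, and a missed call at 2 h is not the absence of a rise. Noc4l had reached 35.3% of its 8 h log2 change by 2 h in rescued cells, and Fbl, called in both steps, 21.6%. Shares over all genes were not computed for these classes.

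Rrp1b, which encodes a nucleolar partner of the large subunit pathway (chromosome 17, 32036100 to 32062865, plus strand), shows the late pattern most plainly. Rescued clones A, B and C stood at 161, 147 and 162 CPM at 0 h, at 144, 151 and 149 CPM at 2 h and at 198, 205 and 196 CPM at 8 h. The first 2 times overlap and the 8 h libraries stand apart. The 8 h against 2 h log2 fold change was 0.43 ± 0.052 in rescued and 0.54 ± 0.054 in knockout cells (adjusted p 2.08e-08 and 5.23e-10, edgeR).

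In knockout cells 20 members were called higher in both steps, 12 at 2 h alone and 8 in the second step alone. The 8 were Nop10, Nolc1, Noc4l, Utp4, Wdr12 and Rrp1b, as in rescued cells, with Fbl and Pes1. By role, the median 2 h log2 fold change came to 73.6% of the median 8 h change for the small subunit genes in rescued cells and to 64.1% in knockout cells. For the large subunit genes it was 46.2% and 33.6%, and for the box H/ACA genes 32.9% and 31.5%. These shares describe medians over few genes and were not tested.

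Gene length went with the timing. Across the 40 members, Spearman's rho between gene length and the log2 fold change from 2 to 8 h was -0.52 in rescued and -0.41 in knockout cells, the shorter genes changing more in the late step. Across 14001 genes with a length the same rho was -0.07 in each. These are descriptions over genes that share libraries, with no test.

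The second set of comparisons asked whether the members' level depended on Med24. At 0 h, 0 members were higher and 3 lower in knockout than in rescued cells (6.81% and 9.64% of all genes). At 0 h, 5 were higher and 5 lower at an unadjusted p under 0.05, and DESeq2 called 0 and 3. At 2 h, 2 were higher and 2 lower (10.8% and 12.9%). At 8 h, 9 were higher and 2 lower (14.5% and 17.1%). These shares of the 40 members were at or below those over all genes apart from the 9 higher at 8 h. Under the scaling used here, all 40 members had at each time a 95% interval of this difference within 0.5 of 0 on the log2 scale. These intervals hold no uncertainty of the scaling. Scaled by library size alone, the 8 h medians were -0.18 for the members and -0.26 for all genes. Under the scaling used here the members' medians were 0.02 at 0 h, 0.02 at 2 h and 0.08 at 8 h. Over all genes they were 0.01, 0.00 and -0.00. Without the 3 libraries rich in abundant genes the 8 h median was 0.04, and 22 members lay above the median of all genes in place of 31.

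Ubtf was the member called lower at all 3 times (chromosome 11, 102304560 to 102319742, minus strand). At 0 h the knockout clones stood at 158, 153 and 149 CPM and the rescued clones at 180, 164 and 177 CPM. At 2 h they stood at 193, 196 and 200.5 CPM against 225, 233 and 254 CPM, and at 8 h at 212, 195 and 233 CPM against 280, 269 and 267 CPM. All knockout libraries lay below all rescued libraries of the same time. The log2 fold changes were -0.18 ± 0.060, -0.27 ± 0.058 and -0.35 ± 0.058 (adjusted p 0.0391, 0.000689 and 1.73e-05, edgeR). The response of Ubtf to 4OHT did not pass a test of difference between knockout and rescued cells (-0.09 at 2 h and -0.17 at 8 h). The 0 h call was lost when any of 5 libraries was left out, that is knockout clone A, B or C or rescued clone A or C, with values from -0.20 to -0.16.

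Npm1 and Nop58 were called higher in knockout cells at 2 and 8 h. Npm1 (chromosome 11, 33152287 to 33163206, minus strand) stood at 1515, 1608 and 1439 CPM in knockout and 1360.2, 1269 and 1320.1 CPM in rescued clones at 2 h, and at 1491, 1554 and 1711 CPM against 1279, 1276 and 1244 CPM at 8 h. The groups did not overlap at either time. The log2 fold change was 0.21 ± 0.070 at 2 h and 0.32 ± 0.070 at 8 h. For Nop58 it was 0.17 ± 0.055 and 0.25 ± 0.055. At 2 h both calls were lost without knockout clone B (Npm1 0.17, Nop58 0.15), without rescued clone B (0.18 and 0.17) and without rescued clone C (0.21 and 0.16), and that of Npm1 also without knockout clone A (0.21). Npm1 has many processed copies in the genome, and reads that match several copies may be lost or split, so its level is uncertain.

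The other members called higher at 8 h in knockout cells were Utp15 (0.26), Rrp12 (0.25), Noc3l (0.20), Ltv1 (0.20), Ddx10 (0.18), Wdr75 (0.17) and Wdr12 (0.17 on the log2 scale). Those called lower were Ubtf and Fbl (-0.15), and the call of Fbl was lost without knockout clone A (-0.11) or B (-0.14) or rescued clone A (-0.12) or B (-0.16). In the knockout 8 h group the 3 clones differ in their share of the 13 abundant genes (18.2%, 36.4% and 43.9%). Without clones B and C and knockout 2 h clone A, 6 members were called higher and 3 lower, and Noc3l (0.18), Ddx10 (0.13) and Wdr75 (0.14) no longer passed. The third member called lower was then Nolc1, at -0.22 against 0.01 with all libraries. Ltv1 lost its call without knockout clone A (0.17) or rescued clone A (0.19) or C (0.17), Wdr12 without knockout clone A (0.15) or rescued clone A (0.17), Ddx10 without knockout clone B (0.14) or rescued clone A (0.16), and Noc3l without rescued clone A (0.17). Without rescued 8 h clone A, 5 members were called higher. Scaled by library size alone, 0 were called higher and 6 lower (2.52% and 28.3% of all genes), and Utp15, Rrp12, Nop58 and Noc3l changed sign.

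**Figure D4:**
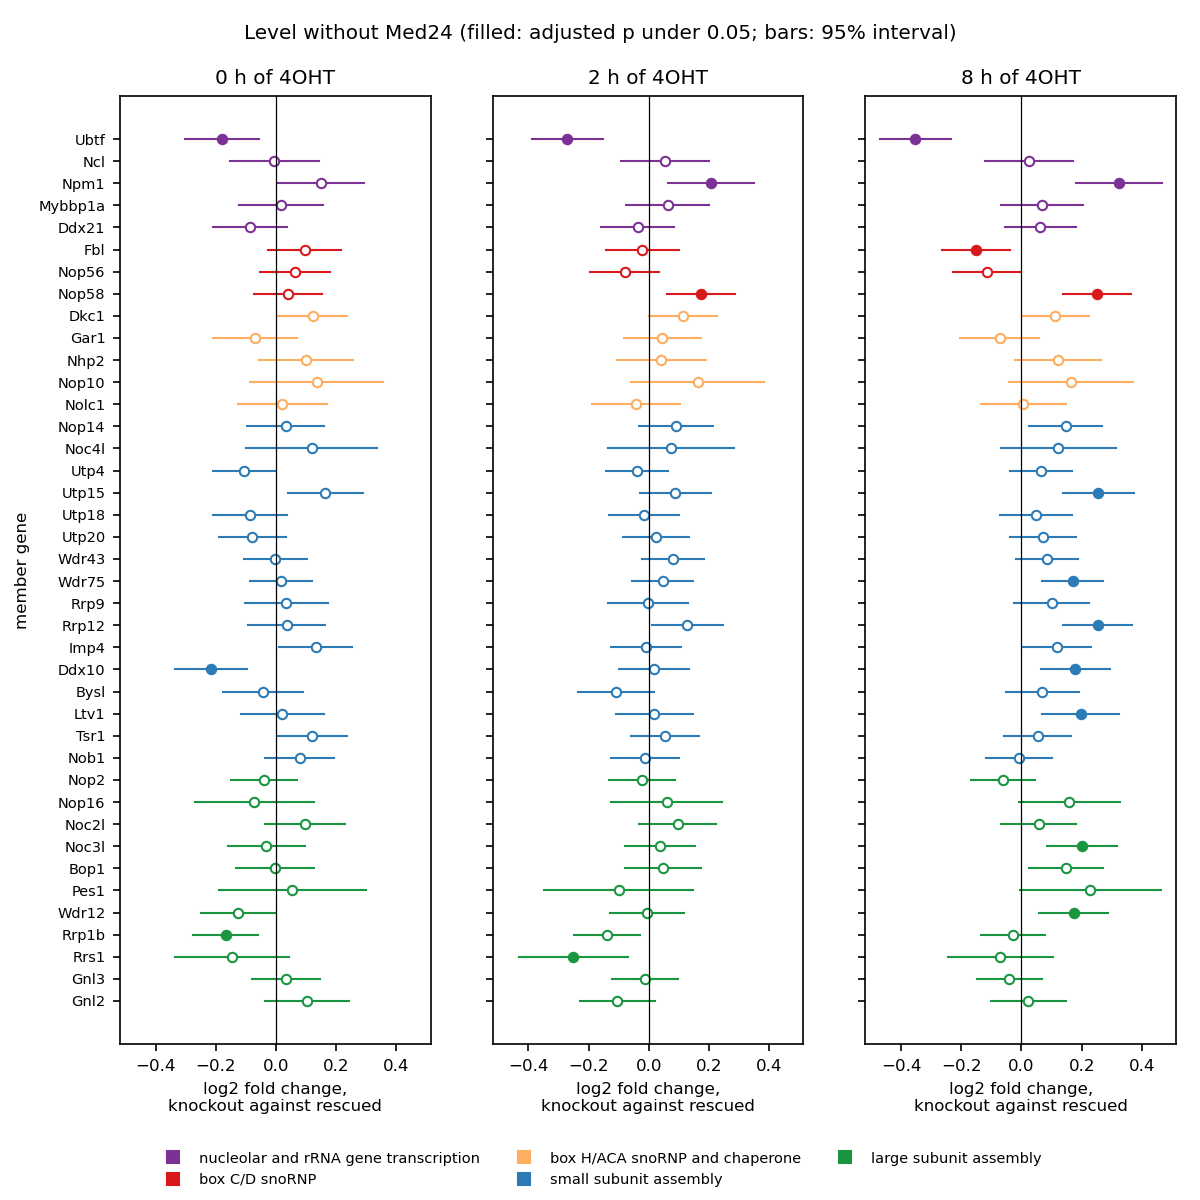
Log2 fold change of each member, knockout against rescued, at 0, 2 and 8 h of 4OHT (points, with 95% intervals as bars and filled points for an adjusted p under 0.05). The points lie within 0.36 of 0, Ubtf is lower at all 3 times, and more points lie to the right at 8 h than at 0 h.

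At 0 h the other members called lower in knockout cells were Ddx10 (-0.22) and Rrp1b (-0.17), and at 2 h the other member called lower was Rrs1 (-0.25), which encodes a factor for 5S particle entry into the large subunit. Ddx10 lost its 0 h call without rescued clone B (-0.19), and Rrp1b lost its call without knockout clone A (-0.13) or C (-0.17) or rescued clone A (-0.15) or C (-0.15). Rrs1 lost its call without knockout clone B (-0.22) or C (-0.24), or rescued clone B (-0.24) or C (-0.19).

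The test of the difference between the 2 responses found few members. At 2 h, 0 members differed in either direction (6.6% of all genes were called in each), by edgeR with adjusted p under 0.05. At an unadjusted p under 0.05 there was 1 in each direction, and DESeq2 called 0 and 0. The 95% interval of the difference lay within 0.5 of 0 on the log2 scale for 39 members, and that of Pes1 reached -0.50. At 8 h, 2 members had a larger and 1 a smaller response in knockout cells (7.88% and 8.88% of all genes), and 38 intervals lay within 0.5 of 0. These intervals too hold no uncertainty of the scaling. Across the 40 members, Pearson's r between the rescued and knockout responses was 0.89 at 2 h and 0.72 at 8 h, and over all 14128 genes 0.89 and 0.87. The 2 responses share no library, and r describes genes, which are not independent replicates.

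Ddx10, which encodes an RNA helicase of small subunit processing (chromosome 9, 53098635 to 53248053, minus strand), differed most. Rescued clones stood at 104, 113 and 111 CPM at 0 h and at 116, 119 and 123 CPM at 8 h. Knockout clones stood at 93.4, 94.5 and 93.6 CPM at 0 h and at 130, 142 and 133 CPM at 8 h. The knockout libraries thus lay below the rescued ones at 0 h and above them at 8 h. The 8 h log2 fold change was 0.52 ± 0.058 in knockout cells and 0.13 in rescued cells, a difference of 0.40 ± 0.081 (adjusted p 0.000901, edgeR). It was 0.35 without the 3 libraries rich in abundant genes, and Ddx10 overlaps the predicted gene Gm47986 on the opposite strand.

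Wdr12 had 8 h log2 fold changes of 0.68 ± 0.059 in knockout and 0.37 ± 0.058 in rescued cells, a difference of 0.30 ± 0.082 (adjusted p 0.0108, edgeR). Its knockout clones went from 65.6, 72.8 and 64.7 CPM to 111, 108 and 106 CPM, and its rescued clones from 78.2, 70.7 and 73.1 CPM to 95.3, 96.5 and 96.5 CPM. Without the 3 libraries rich in abundant genes the difference was 0.34 for Wdr12 and -0.31 for Fbl, and that of Nop58, 0.21 with all libraries, was 0.30 and passed. Wdr12 overlaps Carf on the opposite strand. Fbl differed the other way, with 0.47 ± 0.058 in knockout and 0.71 ± 0.057 in rescued cells, a difference of -0.25 ± 0.081 (adjusted p 0.0349, edgeR). Knockout clones of Fbl stood at 112, 116 and 125 CPM at 8 h and rescued clones at 135, 129 and 126 CPM, close but not overlapping. The call for Fbl was lost when any of 8 libraries was left out, all of clones A and B in the 8 h and rescued 0 h groups and clones A and C of the knockout 0 h group, with values from -0.25 to -0.21. Scaled by library size alone, the differences of Ddx10 and Wdr12 were 0.10 and 0.01 and did not pass.

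**Figure D5:**
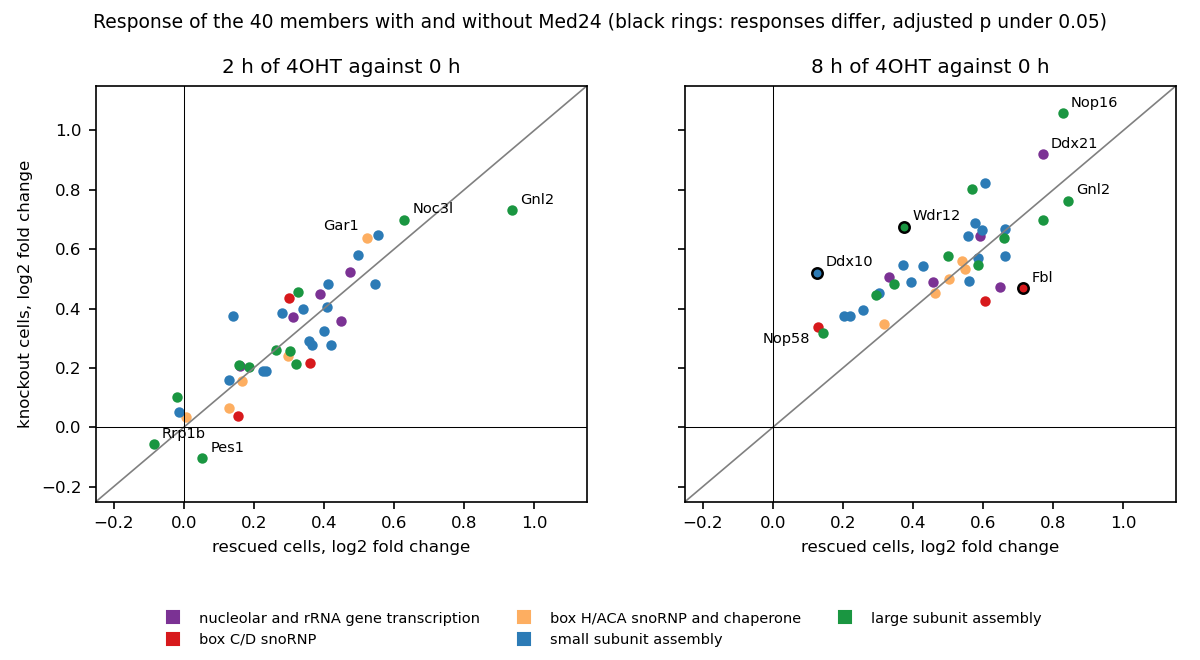
Log2 fold change of each member in knockout cells (vertical axis) against rescued cells (horizontal axis) at 2 h and 8 h of 4OHT, coloured by role, with the line of equal response. Most points lie close to the line at 2 h. At 8 h Ddx10 and Wdr12 lie above it and Fbl below it (black rings).

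Other genes of the pathway were read from companion lists, taken from textbook membership with earlier results of these data known. Of 76 tested other ribosome assembly factors, 57 rose and 1 fell at 2 h in rescued cells and 70 rose and 1 fell at 8 h, with medians of 0.33 and 0.42. In knockout cells 61 rose and 1 fell at 2 h, and 72 rose and 0 fell at 8 h. Over all genes the shares higher and lower in rescued cells were 32.4% and 33.8% at 2 h and 30.7% and 31.3% at 8 h. In knockout cells these shares were 31.5% and 35.2%, then 28.2% and 29.6%. Rrp36, a small subunit factor, went from 31.2 ± 0.61 to 93.2 ± 4.0 CPM in rescued cells (SD, n = 3), and its 8 h level was 41.9 ± 1.4 CPM. Naf1, an assembly factor of box H/ACA snoRNPs, rose by 0.98 and Nip7 by 0.84 at 8 h in rescued cells. Heatr1, a small subunit processome gene, was higher in knockout than in rescued cells at 8 h by 0.37 (adjusted p 3.05e-06, edgeR). Without the 3 libraries rich in abundant genes Heatr1 was higher by 0.22 (adjusted p 0.00379, edgeR), and 68 of the 76 assembly factors rose at 8 h in knockout cells.

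Of 14 genes of the RNA polymerase I machinery, 9 rose and 2 fell at 2 h in rescued cells and 10 rose and 1 fell at 8 h. In knockout cells the counts were 7 and 2, then 11 and 1. Over all genes 32.4% were called higher and 33.8% lower at 2 h in rescued cells, and 30.7% and 31.3% at 8 h. In knockout cells these shares were 31.5% and 35.2% at 2 h, and 28.2% and 29.6% at 8 h. Without those 3 libraries 5 rose and 2 fell at 2 h, and the share that rose was near the 32.6% of all genes. At 8 h the median log2 fold change of the 14 was 0.37 in knockout cells, and 0.38 without those libraries. Rrn3, the initiation factor that carries growth signals to RNA polymerase I, rose by 0.50 at 2 h in rescued and by 0.77 in knockout cells, and this difference of 0.27 passed (adjusted p 0.00952, edgeR). Of 11 RNA exosome genes, which encode the nuclease that trims ribosomal RNA ends, 6 rose and 2 fell at 2 h and 7 rose and 0 fell at 8 h in rescued cells. In knockout cells 4 rose and 3 fell at 2 h, with a median of -0.06 and shares near those of all genes, and 7 rose and 0 fell at 8 h. Exosc10 rose by 0.67 and 0.65 at 2 h in rescued and knockout cells.

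Of 10 MYC genes and partners, 3 were called higher and 3 lower at 2 h in both kinds of cells, shares near those of all genes. At 8 h the counts were 2 and 2 in rescued and 1 and 6 in knockout cells. Over all genes 30.7% and 31.3%, then 28.2% and 29.6%, were called at 8 h. Against 0 h Myc rose and Mycn fell, and from 2 to 8 h both rose. Myc went from 11.2 ± 0.45 to 40.4 ± 2.7 and 92.2 ± 1.0 CPM in rescued cells at 0, 2 and 8 h (SD, n = 3), and from 10.5 ± 1.7 to 23.7 ± 1.3 and 80.9 ± 11 CPM in knockout cells. Mycn fell by 1.56 on the log2 scale at 2 h in rescued cells, from 218 ± 42 to 74.1 ± 8.9 CPM, and its 8 h level was 144 ± 16 CPM. The 2 h change of Myc was 1.86 ± 0.11 in rescued and 1.17 ± 0.12 in knockout cells, a difference of -0.69 ± 0.17 (adjusted p 0.00422, edgeR). At 8 h the difference was -0.13 and did not pass, and it was -0.24 without the 3 libraries rich in abundant genes. In knockout cells Mycn changed by -1.37 at 2 h. The members' 2 h median was 0.31 in rescued and 0.28 in knockout cells. Whether Myc or Mycn has a part in the members' change was not tested.

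The promoters of the members were read to see which letters the genes that rose together hold. RefSeq promoter windows of GRCm38.p6, 250 bases before to 50 after the start, matched 34 of the 40 members in 43 windows. Npm1, Fbl, Rrp12, Bop1, Rrs1 and Gnl2 were not matched. Motifs were searched on both strands. The E-box CACGTG, a sequence that MYC with its partner MAX binds, was in 10 of the 34 genes. It lay in 23.3% of the members' windows and in 7.15% of all 32851 windows. All windows were not limited to the genes tested here, and a gene with several starts gives several windows. The ETS site CCGGAAG, bound by factors of which several are ERK substrates, was in 11 genes, in 27.9% of windows against 8.86% of all. The GC box GGGCGG was in 28 genes, in 76.7% of windows against 35.7%, the CRE TGACGTCA in Noc4l alone, and the AP-1 site TGANTCA in 0 member windows against 7.81% of all. The members' windows were richer in G and C, with a median of 59.7% against 52.7%. What part this has in the motif shares was not tested.

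The E-box stretches below are shown because they place the same 6 letters, in capitals, before the start in Nop2, Utp18 and Imp4, and just after it in Tsr1 and Wdr43, the E-box genes with the largest 2 h change in rescued cells, and in Pes1, the member with the smallest 8 h change in knockout cells. Each is written 5′ to 3′ on the gene's strand.
Nop2 (chr6:125131811-125131840, plus): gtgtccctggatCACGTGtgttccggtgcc
Utp18 (chr11:93885769-93885798, minus): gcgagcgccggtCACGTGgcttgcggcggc
Imp4 (chr1:34439696-34439725, plus): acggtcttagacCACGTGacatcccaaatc
Tsr1 (chr11:74898092-74898121, plus): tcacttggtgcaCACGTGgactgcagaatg
Wdr43 (chr17:71616220-71616249, plus): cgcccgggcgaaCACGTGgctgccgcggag
Pes1 (chr11:3963965-3963994, plus): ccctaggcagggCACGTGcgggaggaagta

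The 10 E-box genes did not stand apart in response. Their median log2 fold change at 2 h in rescued cells was 0.35, against 0.30 in the 24 matched members without it, and at 8 h 0.46 against 0.54. In knockout cells the medians were 0.33 against 0.27 at 2 h and 0.52 against 0.54 at 8 h. The 11 genes with an ETS site had medians of 0.30 against 0.30 at 2 h and 0.54 against 0.56 at 8 h in rescued cells. The ranges with and without each motif overlapped widely, and a match is a description of letters and not of a bound site.

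The 250 bases before the start are shown for 2 members that reached their 8 h level by 2 h, Gar1 and Noc3l, and 2 with a larger late step, Nop2 and Nolc1. E-boxes and ETS sites on either strand are in capitals, so CTTCCGG marks the ETS site on the other strand. The Gar1 stretch has 1 ETS site, and that of Nop2 an E-box and an ETS site 22 bases apart from first letter to first letter. The Nolc1 stretch has an ETS site close to the start. The Noc3l stretch has neither, and the ETS site of Noc3l begins at base 26 after the start, outside the bases shown.
Gar1 (chr3:129831397-129831646, minus): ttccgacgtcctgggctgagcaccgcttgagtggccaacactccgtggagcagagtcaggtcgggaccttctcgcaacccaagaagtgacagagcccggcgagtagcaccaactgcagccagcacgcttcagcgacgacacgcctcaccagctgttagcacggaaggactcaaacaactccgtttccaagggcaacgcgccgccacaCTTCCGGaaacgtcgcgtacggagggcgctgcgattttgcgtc
Noc3l (chr19:38819238-38819487, minus): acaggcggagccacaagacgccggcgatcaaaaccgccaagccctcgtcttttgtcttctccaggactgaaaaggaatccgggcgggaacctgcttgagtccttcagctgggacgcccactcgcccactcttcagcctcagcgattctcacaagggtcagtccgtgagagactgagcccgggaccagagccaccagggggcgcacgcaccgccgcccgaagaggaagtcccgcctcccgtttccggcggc
Nop2 (chr6:125131633-125131882, plus): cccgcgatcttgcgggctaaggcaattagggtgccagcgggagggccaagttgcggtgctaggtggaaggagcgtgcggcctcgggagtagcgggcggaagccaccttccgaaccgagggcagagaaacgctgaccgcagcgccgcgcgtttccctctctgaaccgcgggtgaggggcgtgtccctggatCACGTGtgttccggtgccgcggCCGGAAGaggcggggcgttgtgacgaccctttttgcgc
Nolc1 (chr19:46075597-46075846, plus): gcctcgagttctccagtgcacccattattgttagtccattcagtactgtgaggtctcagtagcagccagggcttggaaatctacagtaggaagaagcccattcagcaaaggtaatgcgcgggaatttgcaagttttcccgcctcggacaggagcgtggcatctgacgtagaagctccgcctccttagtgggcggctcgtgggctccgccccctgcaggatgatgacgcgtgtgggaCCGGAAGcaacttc

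Some members are hosts of other genes. In GENCODE M21, 7 of the 40, Ncl, Nop56, Nop58, Dkc1, Wdr43, Tsr1 and Gnl3, hold 21 annotated snoRNA genes within their span. Nop56 holds 5 of them and Nop58 holds 4. Of the 13776 tested protein-coding genes, 1.75% hold such a gene. The snoRNAs themselves are not analysed here. At 8 h in rescued cells these 7 host genes had log2 fold changes between 0.13 (Nop58) and 0.77 (Gnl3), within the range of the other members. In all, 18 of the 40 members overlap an annotated gene on the opposite strand, whose reads may be counted with theirs. Gnl2 also overlaps Gm12931 on its own strand.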

How the data were processed

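Gene counts in 18 nascent RNA libraries were used as deposited; the count table holds whole-number counts for 25897 genes, and all its columns of values were mapped to a sample. Per the submitters' processing notes STAR, featureCounts and DESeq were used with mm10. Versions, the strand setting and whether introns were counted: not given in the sources used here. The reads carry no molecular identifiers, so counting error is a lower limit of the error.

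From these counts edgeR 4.0.16 (R 4.3.3) filtered genes by expression (14128 left), scaled libraries by TMM and fitted 6 group means with its quasi-likelihood test (12 residual degrees of freedom). All 11 comparisons were adjusted by Benjamini-Hochberg over all tested genes, with a threshold of 0.05. CPM are scaled by TMM. The fit was tested on simulated data. In the lowest library 3 counts correspond to 0.629 CPM. No pair of replicates agreed within sampling noise.

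The clone letters occur in every group of the labels and were taken to mark the same clones. The deviations of libraries with the same letter from their group means correlated by 0.018 on average (-0.13 to 0.096). Between different letters the average was -0.0089. In 14 of 18 libraries the mean correlation with other groups was highest for the library's own letter. The main fit left the letters out. Alternatives were other scalings, DESeq2 1.42.0, no filter, no abundant genes, fewer groups, a replicate block and libraries left out.

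Named members are those with the 5 highest and 5 lowest called changes in a comparison (3 and 3 for differences of response) at a mean of at least 5 CPM, and the 3 highest and lowest by level; others are named to account for every member. The members were picked by symbol, not by value, but they and the lists were chosen with earlier results of these data known.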

Additional observations from a re-analysis of the deposited data

Results flagged for a closer look

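Among the 40 members and Myc, the response to 4OHT differed between knockout and rescued cells in 4 genes by a test of the difference itself (edgeR, 3 clones per group). At 8 h the knockout response, minus the rescued one on the log2 scale, was 0.40 for Ddx10, 0.30 for Wdr12 and -0.25 for Fbl. At 2 h it was -0.69 for Myc, which is not a member.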

How the results depend on the processing

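The following counts are members called at an adjusted p under 0.05. With libraries scaled by size alone, 8 were higher at 2 h in rescued cells (16.9% of all genes). In knockout cells 5 were higher and 2 lower at 2 h (12.3% and 45.5%). Both 2 h counts of higher members were thus near the share of all genes. In knockout cells 10 were higher at 8 h (8.51%) and 13 from 2 to 8 h (18.5%). From 2 to 8 h in rescued cells 0 were lower (17.9%). Between knockout and rescued cells this scaling gave 0 lower at 0 h (1.47% of all genes). It gave 0 higher and 1 lower at 2 h (2.16% and 9.6%), and 0 higher and 6 lower at 8 h (2.52% and 28.3%). Larger 8 h responses numbered 0 (0.772%). At 8 h Utp15 (-0.0026), Rrp12 (-0.014), Nop58 (-0.0043) and Noc3l (-0.064) changed sign. Upper-quartile scaling gave 2 lower at 2 h in rescued and 1 in knockout cells (39.3% and 41.8% of all genes). Between knockout and rescued cells it gave 1 higher and 1 lower at 0 h (8.3% and 8.01%) and 1 lower at 8 h (15.2%). It gave 4 larger 8 h responses (8.45%). DESeq2 gave 1 lower in knockout cells at 2 h and 1 at 8 h (10.3% and 14.1% of all genes), and 0 smaller 8 h responses (6.29%). Without the abundant genes 1 was lower at 2 h and 1 at 8 h (12.2% and 16.1% of all genes). There was then 1 larger 2 h response (7.94%), with 4 larger and 0 smaller 8 h responses (8.96% and 8.09%). Without the 3 libraries rich in them, 18 were higher and 2 lower from 2 to 8 h in knockout cells, 1 was higher at 0 h, and 1 had a larger 2 h response. Fitting only the groups compared gave 1 lower at 8 h (14.5% of all genes), 1 larger 2 h response (8.74%) and 0 smaller 8 h responses (7.71%). The cause was not tested.

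With 1 library left out, the ranges were 0 to 1 lower at 2 h in rescued cells, 1 to 2 lower from 2 to 8 h in rescued and 0 to 1 in knockout cells. Between knockout and rescued cells they were 1 to 2 lower at 0 h, 0 to 2 higher and 1 to 2 lower at 2 h, and 5 to 13 higher and 1 to 2 lower at 8 h. Larger responses numbered 0 to 1 at 2 h and 2 to 5 at 8 h, and smaller ones at 8 h 0 to 2. With a replicate block by clone letter 34 members were higher at 2 h and 37 at 8 h in rescued cells, and the pairing changed no call of the 49 named results.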
